A study of Mus musculus with 16 samples.

Results

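The sterol and fatty acid synthesis genes described here are 36 genes chosen by name, out of 20325 gene names in the RNA tables, and all 36 were found in the tables of all 13 RNA libraries. They comprise 16 enzymes of sterol synthesis, 6 sterol regulators and carriers, 9 genes of fatty acid synthesis and 5 genes of sterol efflux with the nuclear receptors that control it. The study asked how the AP-1 subunit c-Jun moves mouse embryonic stem cells (ESC) out of pluripotency and blocks reprogramming, and how its dominant-negative form c-JunDN and the Jun partner Jdp2 can stand in for Oct4. In ESC, a line with a doxycycline-inducible c-Jun (TetOn) was taken after 36 h with doxycycline or without it, beside wild-type (WT) ESC. In mouse embryonic fibroblasts (MEF), cultures over-expressing c-Jun, c-JunDN, Jdp2 or Oct4 stood beside cultures over-expressing DR and beside WT MEF. In the third setting, MEF received Klf4, Sox2 and c-Myc (KSM) together with Oct4, c-JunDN, Jdp2 or DR, and RNA was taken on day 3. The labels do not spell out DR, which was the matched control of each MEF and KSM culture. All cells carried the OG2 transgene on a mixed 129SVJ, C57B6 and CBA background, with ESC at passage 5 and MEF at passage 2. Neither control library of ESC was labelled as given doxycycline, so the drug and c-Jun cannot be told apart. The sources used here do not say which promoters drove the factors, how long MEF carried them outside the KSM setting, or whether the inducible line was 1 clone.

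Animal cells build cholesterol from acetyl-CoA through mevalonate, isoprenoids, squalene and lanosterol, and build fatty acids from the same acetyl-CoA. The SREBP transcription factors, encoded by Srebf1 and Srebf2, switch on the enzymes of both routes when membrane sterol runs low, often together with the CCAAT-binding factor NF-Y. Scap carries SREBP out of the endoplasmic reticulum, the INSIG proteins hold Scap back when sterol is high, and Insig1 is itself an SREBP target. The oxysterol receptors LXR, encoded by Nr1h2 and Nr1h3, act the other way: they raise the exporters Abca1 and Abcg1 and the ubiquitin ligase Mylip, which lowers lipoprotein uptake.

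Promoter windows show what sequence these genes carry at their starts, and 7 of them are printed because their genes lead the comparisons below or differ in motif content. The sequences are from RefSeq on the build GRCm38.p6, are 300 bases long, run 5′ to 3′ on the gene's strand, and span the annotated transcription start. Capitals mark matches on either strand to CCAAT, the core that NF-Y binds, to TGANTCA, the site of AP-1 dimers such as c-Jun with Fos, or to TCACNCCA, a core of the sterol regulatory element bound by SREBP. Mvk encodes mevalonate kinase, an early enzyme, and its window at chr5:114444019-114444318 (plus strand) held 5 CCAAT matches. Idi1 encodes isopentenyl-diphosphate isomerase and its window was chr13:8885356-8885655 (plus strand). Cyp51 encodes lanosterol demethylase and its window was chr5:4104648-4104947 (minus strand). Dhcr7 encodes the reductase that ends cholesterol synthesis, has 3 annotated starts, and is shown at chr7:143829964-143830263 (plus strand), with 2 CCAAT matches and 1 TGANTCA match. Insig1 is shown at chr5:28071162-28071461 (plus strand) and Srebf2 at chr15:82147019-82147318 (plus strand), the 1 member window with a TCACNCCA match. Abca1 is shown at chr4:53159846-53160145 (minus strand) as a window with none of these letters.
Mvk: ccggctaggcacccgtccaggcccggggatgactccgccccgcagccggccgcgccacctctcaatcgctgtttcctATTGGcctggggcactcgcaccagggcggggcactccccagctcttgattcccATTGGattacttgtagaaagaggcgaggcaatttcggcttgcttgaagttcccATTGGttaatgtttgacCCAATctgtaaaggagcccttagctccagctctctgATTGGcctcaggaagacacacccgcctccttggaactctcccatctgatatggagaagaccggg
Idi1: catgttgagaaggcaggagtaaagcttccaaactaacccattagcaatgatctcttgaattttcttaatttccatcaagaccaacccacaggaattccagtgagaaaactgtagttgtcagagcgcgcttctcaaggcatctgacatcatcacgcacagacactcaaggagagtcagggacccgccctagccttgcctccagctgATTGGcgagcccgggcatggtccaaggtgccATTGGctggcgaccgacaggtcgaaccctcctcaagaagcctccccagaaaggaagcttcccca
Cyp51: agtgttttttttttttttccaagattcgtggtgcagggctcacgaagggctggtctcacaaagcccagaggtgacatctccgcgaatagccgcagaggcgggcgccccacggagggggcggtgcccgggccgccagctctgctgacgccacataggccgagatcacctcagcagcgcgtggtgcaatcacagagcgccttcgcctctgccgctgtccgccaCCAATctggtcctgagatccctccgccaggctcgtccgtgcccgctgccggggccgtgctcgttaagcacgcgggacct
Dhcr7: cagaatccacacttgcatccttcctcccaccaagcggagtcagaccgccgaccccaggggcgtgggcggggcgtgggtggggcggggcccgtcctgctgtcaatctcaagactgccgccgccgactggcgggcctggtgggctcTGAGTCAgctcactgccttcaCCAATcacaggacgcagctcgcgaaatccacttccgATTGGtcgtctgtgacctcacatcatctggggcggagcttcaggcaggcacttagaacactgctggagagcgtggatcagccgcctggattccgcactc
Insig1: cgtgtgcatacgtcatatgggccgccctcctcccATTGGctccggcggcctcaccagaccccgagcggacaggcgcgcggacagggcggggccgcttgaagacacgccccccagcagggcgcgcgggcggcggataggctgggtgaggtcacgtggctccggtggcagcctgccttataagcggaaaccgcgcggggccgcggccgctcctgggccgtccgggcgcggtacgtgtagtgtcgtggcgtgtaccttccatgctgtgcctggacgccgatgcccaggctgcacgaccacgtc
Srebf2: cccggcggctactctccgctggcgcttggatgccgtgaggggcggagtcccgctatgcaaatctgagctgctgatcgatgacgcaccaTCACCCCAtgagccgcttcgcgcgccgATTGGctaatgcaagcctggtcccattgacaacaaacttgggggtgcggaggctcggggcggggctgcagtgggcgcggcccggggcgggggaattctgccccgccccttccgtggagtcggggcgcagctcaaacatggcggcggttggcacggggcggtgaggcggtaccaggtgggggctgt
Abca1: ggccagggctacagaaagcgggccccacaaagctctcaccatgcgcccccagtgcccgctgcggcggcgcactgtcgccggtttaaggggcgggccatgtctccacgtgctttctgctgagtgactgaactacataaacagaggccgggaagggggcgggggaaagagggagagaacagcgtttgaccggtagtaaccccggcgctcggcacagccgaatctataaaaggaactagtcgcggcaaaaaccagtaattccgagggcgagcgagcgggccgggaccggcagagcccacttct

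Of the 36 members, 28 matched an entry in the promoter table, with 37 windows in all. CCAAT stood in 12 of 16 windows of the sterol enzymes, in 5 of 10 windows of the regulators, in 3 of 6 windows of the fatty acid genes and in 1 of 5 windows of the efflux group, against 37.4% of all 32851 promoter windows of the table. By gene, 12 of the 13 sterol enzymes with a window held CCAAT, Acat2 being the exception. TGANTCA stood in 1 of the 37 member windows (2.70%), that of Dhcr7, against 7.81% of all windows. TCACNCCA stood in 1 of 37 (2.70%), against 4.36% of all windows. The 3 motifs overlapped in none of the printed windows. A match describes letters in these windows and does not show that a factor binds there.

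Levels are given as CPM, the authors' RSEM expected counts scaled to library size by TMM, or as TPM, which is also per length and is used wherever different genes are compared. A change is the log2 ratio of CPM plus 1. Genes with 5 CPM or more in either library count as measured there, and a change of 2-fold or more on that scale is a call. Each fold carries a 95% interval from the counts of the 2 libraries, which covers counting error only. PCR reads without molecular identifiers are not independent molecules, so even that error may be understated. As each group is a single library, no spread between replicates is known, no p-value is given, and each difference compares libraries. For calls of a factor library against WT alone, and for counts of intervals above or below 1, no share over all genes is given. The same holds for counts of calls under alternative settings of the processing. Total counts were between 1839198 and 3440917 in the libraries other than WT, and 12173100 in WT ESC and 21415021 in WT MEF. Each introduced gene was far above its control in the library labelled with it, such as Jun at 2015 CPM with doxycycline and 21.2 CPM without, or 11965 CPM in c-Jun MEF and 88.5 CPM in DR MEF. Summed fibroblast markers stood at 14514 to 54796 CPM in the 6 MEF libraries and at 1238 to 2018 CPM in the 4 KSM libraries. In bulk RNA, fewer cells of a type and less RNA per cell cannot be told apart.

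Across the 13 libraries the sterol enzymes formed a band of moderate abundance, with the fatty acid genes above them in TPM. The median TPM of the 16 enzymes was 38.3 in ESC with doxycycline, 56.4 without and 68.9 in WT ESC. In MEF it was 38.4 with c-Jun, 89.4 with c-JunDN, 61.7 with Jdp2, 68.7 with Oct4, 86.7 with DR and 68.5 in WT. In the KSM libraries it was 96.4 with Oct4, 89.2 with c-JunDN, 64.0 with Jdp2 and 79.2 with DR. The lowest medians were thus in the 2 libraries with introduced c-Jun. The median TPM of the 9 fatty acid genes ranged between 65.6 in ESC with doxycycline and 205 in KSM with c-JunDN. The MEF Oct4 library was quantified by the authors on other gene models, so its TPM is set beside the rest with that limit.

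**Figure D1:**
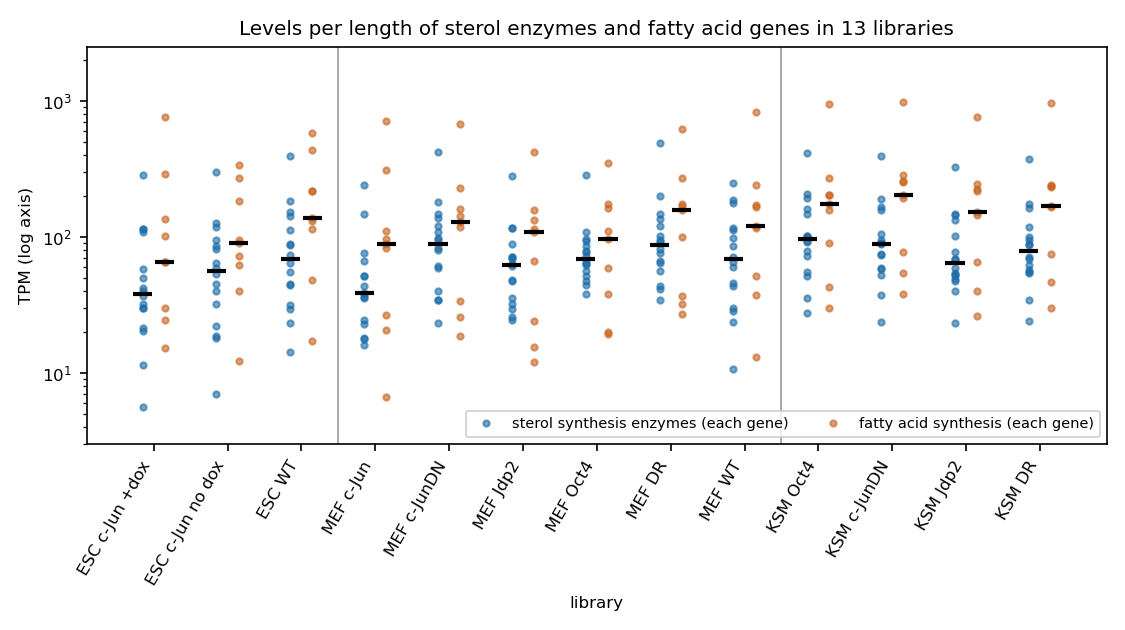
TPM (log axis) of each of the 16 sterol enzymes (blue) and 9 fatty acid genes (orange) in the 13 libraries, with the median of each group as a black bar. The enzyme medians of ESC with doxycycline and of c-Jun MEF, 38.3 and 38.4 TPM, are the lowest of the 13.

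Scd2, a stearoyl-CoA desaturase that makes monounsaturated fatty acids, had the highest TPM of the 36 genes in each of the 13 libraries, at 340.2 in ESC without doxycycline up to 992 in KSM with c-JunDN. Reads of Scd2 and its close copy Scd1 may have been split by the counting, so their separate levels are uncertain, and the same holds for Fads1 and Fads2. Fdps, which makes farnesyl diphosphate, was the highest sterol enzyme in each library, between 241 TPM in c-Jun MEF and 489 TPM in DR MEF. Hsd17b7, a ketoreductase of sterol demethylation, was the lowest enzyme in the 3 ESC libraries, at 5.57 TPM with doxycycline, 6.98 without and 14.2 in WT. The receptor gene Nr1h3 lay under 10 TPM in each library, while its relative Nr1h2 lay between 33.6 TPM in WT MEF and 99.5 TPM in Jdp2 MEF. Srebf2 exceeded Srebf1 in TPM in each of the 13 libraries, by the least in KSM with c-JunDN (126 and 103 TPM).

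In ESC after 36 h with doxycycline, 6 of the 16 sterol enzymes (Mvd, Idi1, Lss, Tm7sf2, Ebp and Dhcr7), 3 of the 9 fatty acid genes (Fasn, Acaca and Elovl6) and Insig1 fell relative to the line without it. Sc5d, Insig2, Abca1 and Mylip rose. Of 35 measured members, 10 fell and 4 rose, beside 18.9% lower and 21.5% higher among all 11133 measured genes. On this scale, the share of members called lower was above that background and the share called higher was below it. The median change was -0.59 for the 16 sterol enzymes, 0.29 for the 6 regulators and -0.30 for the 9 fatty acid genes, beside -0.072 for all measured genes. As TPM, 4 members were called lower. No share over all genes is given on that scale, so whether the members stay above the background there is not known. The enzyme median as TPM was -0.21 and the fatty acid median 0.078, beside 0.292 for all measured genes. The fatty acid median thus changed sign on that scale but stayed below the median of all genes on both scales. Against WT ESC, 15 members were called lower and 0 higher, with no share over all genes given. The enzyme median there was -1.03, beside -0.258 for all measured genes.

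Ebp, the sterol isomerase late in the pathway, stood at 15.9 CPM with doxycycline, 78.6 CPM without and 39.5 CPM in WT ESC, and was 4.94-fold lower (3.56 to 6.97) with doxycycline than without. Dhcr7 stood at 24.4 CPM with doxycycline, 70.0 CPM without and 127 CPM in WT, and was 2.87-fold lower (2.16 to 3.85). Idi1 stood at 51.2, 135 and 224 CPM in the same order and was 2.63-fold lower (2.16 to 3.22). For each of these 3 the doxycycline library was the lowest of the 3 ESC libraries. Mvd, the decarboxylase that yields isopentenyl diphosphate, was 2.59-fold lower (1.93 to 3.50) at 24.1 CPM against 62.4 CPM. Lss, the cyclase that makes lanosterol, was 2.57-fold lower (2.05 to 3.25) at 39.3 CPM against 101 CPM. Tm7sf2, a sterol reductase, was 2.54-fold lower (1.46 to 4.53) at 7.12 CPM against 18.1 CPM. The other enzymes that were not called lay under the limit: Fdps was at a log2 change of -0.44, Fdft1, which makes squalene, at -0.18, Sqle, which oxidises it, at -0.43, Cyp51 at -0.78 and Nsdhl, a demethylation dehydrogenase, at -0.18. Acat2, which joins acetyl units, was at -0.52, Pmvk, the phosphomevalonate kinase, at -0.25 and Hsd17b7 at -0.65. Sc5d, a desaturase beside Ebp and Dhcr7 in the pathway, went the other way and was 2.10-fold higher (1.51 to 2.96) at 47.5 CPM with doxycycline against 22.6 CPM without, and Mvk was at 0.68.

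The INSIG genes split. Insig1 stood at 62.0 CPM with doxycycline, 158 CPM without and 344 CPM in WT ESC, 2.54-fold lower (2.12 to 3.06) with doxycycline than without. Insig2 stood at 43.7 CPM with doxycycline, 15.8 CPM without and 22.4 CPM in WT, 2.77-fold higher (1.89 to 4.14), and it was not called against WT. The SREBP genes stayed within 2-fold: Srebf1 was at 146 CPM with doxycycline and 114 CPM without, and Srebf2 at 236 and 249 CPM. Scap was at a log2 change of 0.26 and Stard4, a cytosolic sterol carrier, at 0.32, but against WT ESC Stard4 was called lower at -1.01.

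Among fatty acid genes, Elovl6, the elongase of palmitate, stood at 76.6 CPM with doxycycline, 295 CPM without and 401 CPM in WT, 3.85-fold lower (3.31 to 4.50). Fasn, the fatty acid synthase, stood at 433, 1013 and 1119 CPM in that order, 2.34-fold lower (2.18 to 2.51). Acaca, the carboxylase that makes malonyl-CoA, stood at 94.2, 201 and 225 CPM, 2.13-fold lower (1.83 to 2.49). All 3 were lowest with doxycycline, and the uninduced and WT libraries differed by less than 2-fold in each. The desaturase Scd2 stood at 1768, 1024 and 1648 CPM, 1.73-fold higher (1.64 to 1.81) with doxycycline than without and under the 2-fold limit. Scd1 stood at 279, 195 and 539.6 CPM, 1.43-fold higher (1.27 to 1.61) than without but at a log2 change of -0.95 against WT, the opposite sign and also under the limit. Acly, which supplies cytosolic acetyl-CoA, was at -0.29 on the log2 scale, Acss2, which activates acetate, at -0.050, and the desaturases of polyunsaturated fats Fads1 and Fads2 at -0.30 and -0.89.

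Abca1 stood at 61.3 CPM with doxycycline, 6.78 CPM without and 64.7 CPM in WT ESC. It was 9.05-fold higher (5.34 to 16.5) with doxycycline than without, but the uninduced line was the library that stood apart, and against WT ESC the log2 change was -0.075. Mylip stood at 16.9 CPM with doxycycline, 4.97 CPM without and 8.46 CPM in WT, 3.41-fold higher (1.75 to 7.26). Abcg1 and Nr1h2 were at log2 changes of 0.69 and -0.46, and Nr1h3 was not measured, with 6 counts with doxycycline and 1 without, a ratio of 4.50 (95% interval 0.546 to 207). Against both ESC controls, 10 members were called lower (Mvd, Idi1, Lss, Tm7sf2, Ebp, Dhcr7, Insig1, Fasn, Acaca and Elovl6), beside 11.3% of genes measured against both. No member was called higher against both, and the share of all genes called so is not given. Summed ESC markers were at 1209 CPM with doxycycline, with all 10 detected, against 7456 CPM without, and summed fibroblast markers at 542 CPM with Lum at 0, against 123 CPM with Postn at 0. Of the 10 fibroblast markers, 7 were higher and 3 lower with doxycycline. The difference of the sums lay mainly in Col1a1, at 471 CPM with doxycycline and 6.33 CPM without. The other 9 summed to 71.5 and 117 CPM, with Fbln1 at 25.1 and 98.5 CPM. The part of these markers in the sterol result was not tested.

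**Figure D2:**
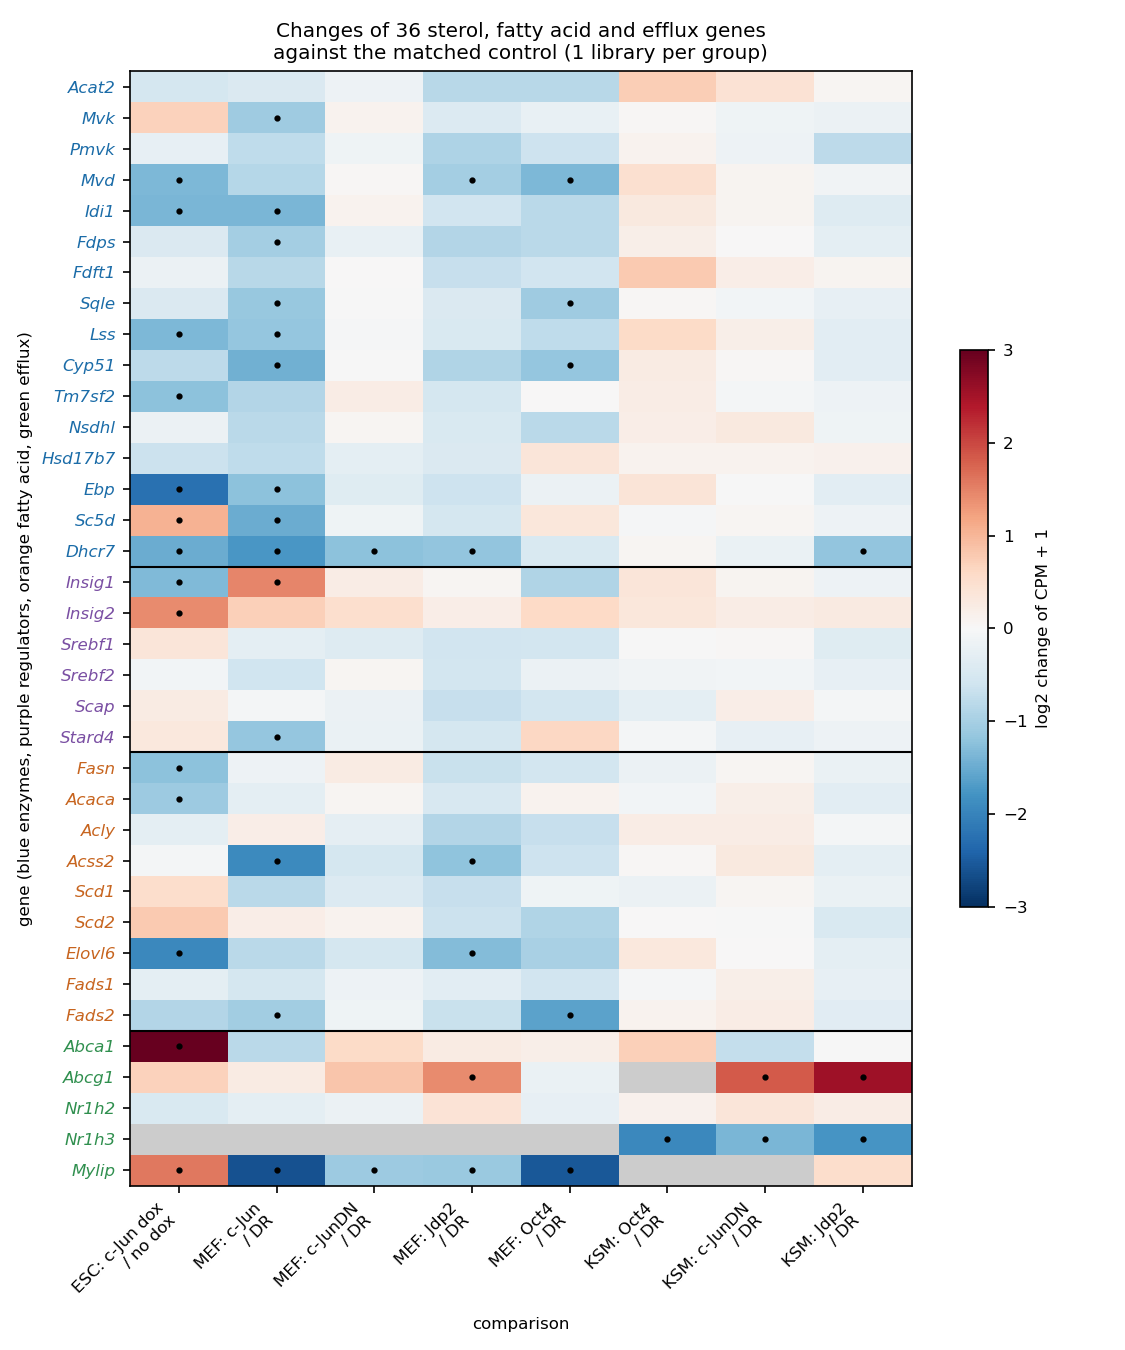
Log2 change of CPM plus 1 for the 36 genes (rows, in pathway order within each group) in the 8 comparisons with a matched control (columns), in red where higher and blue where lower, with a dot on calls at 2-fold and grey where a gene was not measured. The c-Jun MEF column is blue for all 16 enzymes, with 9 dots, and the 3 KSM columns hold 1 dot among the enzymes, on Dhcr7 with Jdp2.

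In MEF with c-Jun, 9 of the 16 sterol enzymes fell relative to DR, from the mevalonate kinase Mvk to Dhcr7, and Insig1 rose. Of 35 measured members, 13 fell and 1 rose, beside 9.54% lower and 7.75% higher among all 11114 measured genes. All 16 sterol enzymes had a log2 change under 0 with a counting interval below 1 against DR, but the share of all genes with such an interval is not given. Against WT MEF, 5 of the 16 were called lower, with no share over all genes given, and 4 were above 0 (Mvd, Pmvk, Tm7sf2 and Acat2). The enzyme median there was -0.65, beside -0.092 for all genes. Against DR the enzyme median was -1.04, beside 0.005 for all genes, -0.52 for the fatty acid genes and -0.18 for the regulators.

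Dhcr7 stood at 20.5 CPM with c-Jun, 71.1 CPM with DR and 39.7 CPM in WT MEF, 3.47-fold lower (2.44 to 5.03) with c-Jun than with DR. Sc5d stood at 23.0 CPM with c-Jun, 65.8 CPM with DR and 89.9 CPM in WT, 2.86-fold lower (2.03 to 4.09). Cyp51 stood at 86.5, 238 and 384 CPM in that order, 2.76-fold lower (2.31 to 3.30). In all 3 the c-Jun library was the lowest of the 6 MEF libraries. Idi1 was 2.61-fold lower (2.07 to 3.32) at 50.0 CPM against 131 CPM. Ebp was 2.45-fold lower (1.56 to 3.95) at 14.0 CPM against 34.3 CPM. Lss was 2.27-fold lower (1.79 to 2.90) at 50.5 CPM against 115 CPM. These steps run from isoprenoid assembly to the last conversions of the sterol ring. Sqle, often a slow step of the route, was 2.22-fold lower (1.85 to 2.69) at 82.5 CPM against 183 CPM. Mvk was 2.13-fold lower (1.53 to 3.00) at 27.0 CPM against 57.6 CPM. Fdps was 2.03-fold lower (1.75 to 2.36) at 133 CPM against 269.8 CPM. The other 7 enzymes (Acat2, Pmvk, Mvd, Fdft1, Tm7sf2, Nsdhl and Hsd17b7) lay between log2 changes of -0.87 and -0.43.

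Insig1 moved against the enzymes. It stood at 277 CPM with c-Jun, 99.6 CPM with DR and 186 CPM in WT MEF, 2.78-fold higher (2.37 to 3.28) with c-Jun than with DR, and the c-Jun library was the highest of the 6. Against WT MEF its log2 change was 0.575 and it was not called. Insig2 was 1.65-fold higher (1.24 to 2.20) at 65.5 CPM against 39.7 CPM, under the limit. Srebf2 was at 166 CPM with c-Jun and 253 CPM with DR, 1.52-fold lower (1.32 to 1.75), and Srebf1 at 93.5 and 115 CPM, 1.23-fold lower (1.01 to 1.49). Neither reached 2-fold, and Scap was at a log2 change of -0.064. Stard4 was 2.32-fold lower (1.47 to 3.74), at 14.0 CPM with c-Jun, 32.4 CPM with DR and 101 CPM in WT.

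Of the 9 fatty acid genes, Acss2 and Fads2 fell and the other 7 were not called. Acss2 stood at 8.50 CPM with c-Jun, 34.8 CPM with DR and 17.2 CPM in WT, 4.10-fold lower (2.39 to 7.42). Fads2 stood at 56.5, 118 and 82.5 CPM in that order, 2.09-fold lower (1.67 to 2.64). Neither was called against WT MEF. Fasn, Acaca and Acly were at log2 changes of -0.16, -0.28 and 0.20, while Elovl6 was at -0.82, Scd1 at -0.81, Scd2 at 0.19 and Fads1 at -0.52.

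Mylip showed the largest change of the members. It stood at 10.00 CPM with c-Jun, 65.8 CPM with DR and 24.6 CPM in WT MEF, and was 6.58-fold lower (4.10 to 11.1) with c-Jun than with DR. DR MEF was the highest of the 6 MEF libraries. Abca1 was at 52.0 CPM with c-Jun and 91.9 CPM with DR, 1.77-fold lower (1.38 to 2.27), and Abcg1 and Nr1h2 were at log2 changes of 0.25 and -0.29. Nr1h3 had 0 counts with c-Jun and 4 with DR, so it was at least 1.29-fold lower against a floor of 3 counts. Against both DR and WT MEF, 6 members were called lower (Idi1, Sqle, Cyp51, Sc5d, Stard4 and Mylip), beside 5.12% of all genes measured against both.

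Adipocyte markers also differed with c-Jun in MEF: their sum was 22.5 CPM with c-Jun, 241 CPM with DR and 43.5 CPM in WT, with 4 of 8 detected in each and Adipoq, Cfd, Cidec and Plin1 at 0. The difference lay mainly in Lpl, a lipase that fibroblasts also express, at 11.0, 223 and 33.4 CPM in that order. Summed macrophage markers were at 145 CPM with c-Jun, with 13 of 15 detected and Fcgr1 and Ptprc at 0, against 114 CPM with DR, with all 15 detected. Of the 15 macrophage markers, 5 were higher and 10 lower with c-Jun, and without Csf1r, at 73.0 and 4.35 CPM, the sum was 71.5 and 109.8 CPM. Summed fibroblast markers were at 14514 CPM with c-Jun against 32184 CPM with DR. The part of these markers in the sterol result was not tested.

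**Figure D3:**
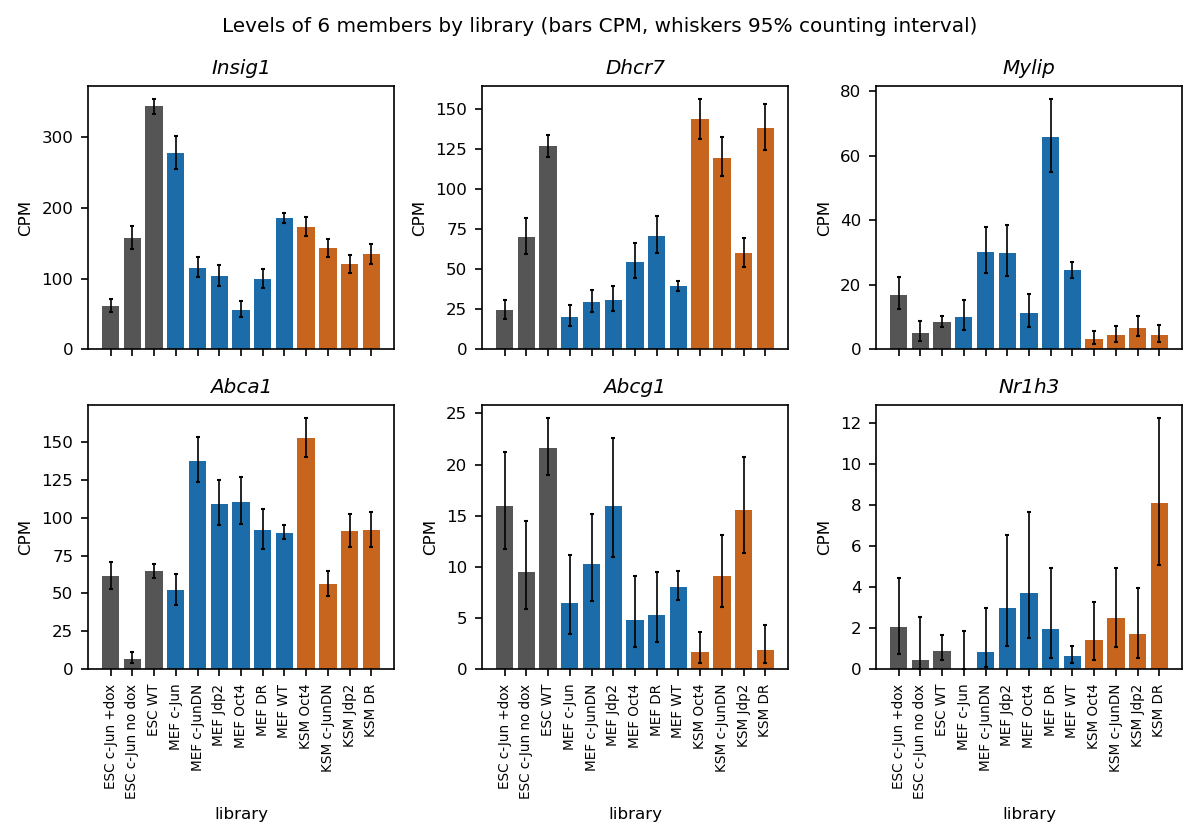
CPM of 6 members in the 13 libraries (bars, with whiskers for the 95% counting interval), in grey for ESC, blue for MEF and orange for KSM. Insig1 is highest among MEF with c-Jun (277 CPM), Mylip is highest of all libraries in DR MEF (65.8 CPM), and Abca1 is lowest in the uninduced ESC line (6.78 CPM).

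With the dominant-negative c-JunDN in MEF, the sterol enzymes other than Dhcr7 stayed within 2-fold of DR. Of 35 measured members, 2 fell and 0 rose, beside 2.71% lower and 3.25% higher among all 11030 measured genes. The median change of the 16 enzymes was -0.033, beside 0.008 for all genes. Against WT MEF it was 0.23, beside -0.087 for all genes. There 3 members were called higher and 2 lower, with no share over all genes given. Dhcr7 stood at 29.5 CPM with c-JunDN and 71.1 CPM with DR, 2.41-fold lower (1.80 to 3.24), and Mylip at 30.4 and 65.8 CPM, 2.17-fold lower (1.62 to 2.92). Neither was called against WT MEF, which stood at 39.7 CPM for Dhcr7 and 24.6 CPM for Mylip, and the Mylip change there was 0.295, the opposite sign. Insig1 was at 116 CPM with c-JunDN and 99.6 CPM with DR, Insig2 at 56.2 and 39.7 CPM, Srebf1 at 87.0 and 115 CPM and Srebf2 at 262 and 253 CPM. None of these 4 regulators reached 2-fold. The enzymes other than Dhcr7 lay between log2 changes of -0.35 (Ebp) and 0.22 (Tm7sf2), and the fatty acid genes between -0.53 (Acss2) and 0.24 (Fasn). The c-Jun, c-JunDN, Jdp2 and Oct4 comparisons in MEF share the DR library, so their likeness to each other is not used as a result.

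With Jdp2 in MEF, Mvd, Dhcr7, Elovl6, Acss2 and Mylip fell relative to DR, and Abcg1 rose. Of 35 measured members, 5 fell and 1 rose, beside 6.32% lower and 5.81% higher among all 11080 measured genes. All 16 enzymes had a log2 change under 0, with a median of -0.59, and 15 had a counting interval below 1, while the median of all genes was -0.003. Against WT MEF, 7 of the 16 were above 0 (Mvd, Mvk, Pmvk, Fdps, Tm7sf2, Nsdhl and Acat2) and the enzyme median was -0.13, beside -0.095 for all genes. All 9 fatty acid genes were below 0 against DR with intervals below 1, with a median of -0.68, and all 9 were below 0 against WT MEF. For these counts of intervals, too, no share over all genes is given.

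Elovl6 stood at 39.5 CPM with Jdp2, 98.7 CPM with DR and 105 CPM in WT MEF, 2.50-fold lower (1.92 to 3.28), and it was the 1 member called lower against both controls (4.04% of all genes measured against both). Acss2 stood at 14.5 CPM with Jdp2, 34.8 CPM with DR and 17.2 CPM in WT, 2.40-fold lower (1.54 to 3.84). Dhcr7 stood at 31.0, 71.1 and 39.7 CPM in that order, 2.30-fold lower (1.69 to 3.14). Acss2 and Dhcr7 were thus called lower against DR but not against WT. Mvd stood at 36.5, 75.4 and 35.7 CPM, 2.07-fold lower (1.56 to 2.77), and Mylip at 30.0, 65.8 and 24.6 CPM, 2.19-fold lower (1.61 to 3.02). Against WT MEF, the log2 changes were 0.03 for Mvd and 0.277 for Mylip, both with the sign turned. Abcg1 was 3.01-fold higher (1.48 to 6.61) at 16.0 CPM with Jdp2 against 5.32 CPM with DR, on 32 and 11 counts. Insig1 was at 104 CPM with Jdp2 and 99.6 CPM with DR, Insig2 at 45.5 and 39.7 CPM, Srebf1 at 77.0 and 115 CPM and Srebf2 at 173 and 253 CPM. The counting intervals of both INSIG genes included 1, while those of both SREBP genes lay below it, at 1.49-fold lower (1.21 to 1.84) for Srebf1 and 1.47-fold lower (1.28 to 1.68) for Srebf2.

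With Oct4 in MEF, Sqle, Cyp51, Mvd, Fads2 and Mylip fell relative to DR. This comparison uses the 19679 gene names shared with the Oct4 table, on which DR was rescaled, and the 2 libraries were counted by the authors on different gene models, a difference that cannot be told apart from Oct4. Of 35 measured members, 5 fell and 0 rose, beside 10.3% lower and 11.6% higher among 11202 measured genes. The median change was -0.70 for the enzymes and -0.61 for the fatty acid genes, beside 0.010 for all genes. Against WT MEF, 8 members were called lower and 1 higher, with no share over all genes given. The enzyme median there was -0.18, beside -0.078 for all genes, and 8 of the 16 enzymes had the opposite sign. Sqle stood at 92.6 CPM with Oct4 and 196 CPM with DR, 2.11-fold lower (1.76 to 2.54). Cyp51 stood at 114 and 254 CPM, 2.23-fold lower (1.90 to 2.63). Fads2 stood at 41.0 and 126 CPM, 3.07-fold lower (2.37 to 4.02). These 3 and Mylip, at 11.2 CPM with Oct4 and 70.2 CPM with DR and 6.28-fold lower (3.95 to 10.5), were also called lower against WT MEF, beside 5.91% of all genes. Mvd was 2.61-fold lower (1.92 to 3.59) at 30.9 CPM against 80.5 CPM. Insig1 was at 56.4 CPM with Oct4 and 106 CPM with DR, 1.88-fold lower (1.48 to 2.40) and under the limit. Insig2 was at 64.4 and 42.3 CPM, Srebf1 at 83.6 and 122 CPM and Srebf2 at 238 and 270.4 CPM. Sc5d, Hsd17b7 and Stard4 were at log2 changes of 0.34, 0.35 and 0.62, and all 3 were below 0 against WT MEF. Summed macrophage markers were at 465 CPM with Oct4 against 114 CPM with DR, with all 15 detected in both. Summed adipocyte markers were at 29.3 CPM with Oct4 and 241 CPM with DR, with Lpl at 10.1 and 223 CPM. Without Lpl the sums were 19.2 and 17.9 CPM. Summed fibroblast markers were at 16957 CPM with Oct4 and 32184 CPM with DR, with 8 of 10 lower and 2 higher. The DR values of these markers were not rescaled to the shared names. The part of these markers in the result was not tested.

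**Figure D4:**
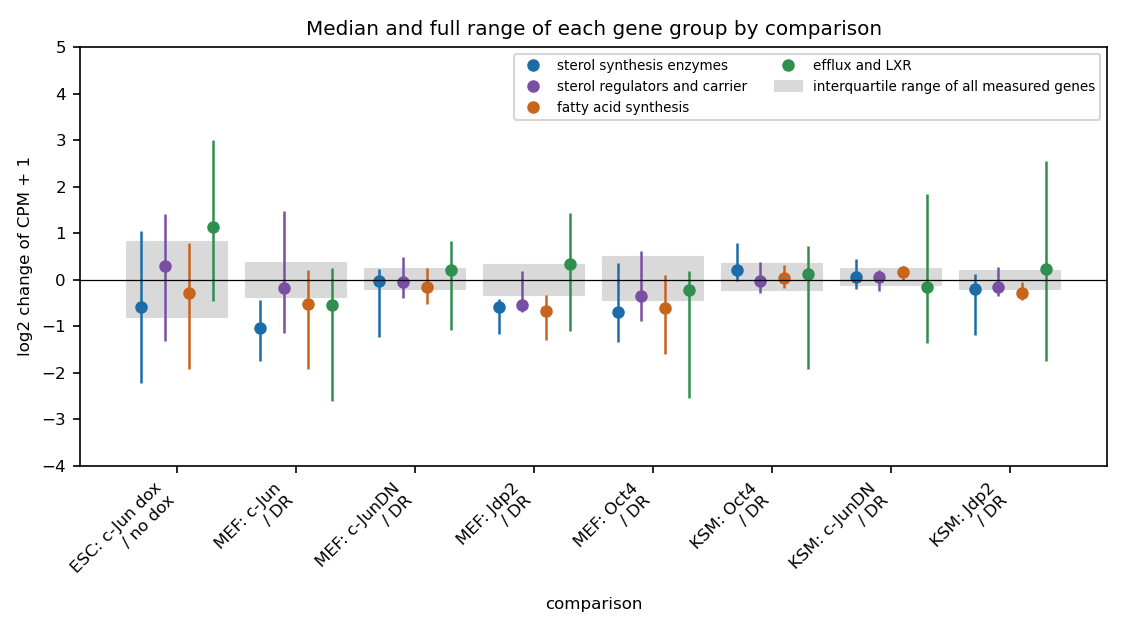
Median (point) and full range (line) of the log2 change of CPM plus 1 for the measured genes of each group in the 8 comparisons, with the interquartile range of all measured genes as a grey box. The enzyme medians are -1.04 with c-Jun, -0.033 with c-JunDN, -0.59 with Jdp2 and -0.70 with Oct4 in MEF, and the enzyme medians of the 3 KSM comparisons lie between -0.21 and 0.20.

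On day 3 of reprogramming, the added factors moved few members. With Oct4, 1 of 34 measured members fell and 0 rose, beside 6.67% lower and 4.65% higher among 10750 genes. With c-JunDN, 1 of 35 fell and 1 rose, beside 1.62% lower and 1.81% higher among 10715 genes. With Jdp2, 2 of 36 fell and 1 rose, beside 1.31% lower and 2.68% higher among 10763 genes. The enzyme medians were 0.20 for the Oct4 library, 0.056 for c-JunDN and -0.21 for Jdp2, beside 0.074, 0.048 and -0.032 for all genes. The 3 comparisons share the KSM library with DR.

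With Oct4 in KSM, 15 of 16 enzymes had a log2 change above 0, of which 8 had a counting interval above 1, and none reached 2-fold. The share of all genes with an interval above 1 is not given. The highest were Fdft1, at 212 CPM with Oct4 and 123 CPM with DR, 1.72-fold higher (1.51 to 1.97), and Acat2, at 202 and 120.0 CPM, 1.68-fold higher (1.47 to 1.92). Lss was 1.50-fold higher (1.29 to 1.75) and Abca1 1.66-fold higher (1.43 to 1.94). Insig1 was at 174 CPM with Oct4 and 134 CPM with DR, Insig2 at 28.4 and 22.1 CPM, Srebf1 at 203 and 204 CPM and Srebf2 at 273 and 291 CPM. The counting intervals of both SREBP genes included 1.

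With c-JunDN in KSM, Insig1 was at 143 CPM against 134 CPM with DR, Insig2 at 25.8 against 22.1 CPM, Srebf1 at 209 against 204 CPM and Srebf2 at 273 against 291 CPM. With Jdp2 in KSM, Insig1 was at 120.2 CPM against 134 CPM with DR, Insig2 at 26.7 against 22.1 CPM, Srebf1 at 159 against 204 CPM and Srebf2 at 246 against 291 CPM. None of these regulators reached 2-fold with either factor. Dhcr7 stood at 60.1 CPM with Jdp2 against 138 CPM with DR, 2.30-fold lower (1.92 to 2.77), while the KSM libraries with Oct4 and c-JunDN held 144 and 119.7 CPM. With Jdp2 the other 15 enzymes lay between log2 changes of -0.78 (Pmvk) and 0.13 (Hsd17b7), and the 9 fatty acid genes between -0.45 (Scd2) and -0.050 (Acly). Pmvk, Fdft1, Nsdhl, Hsd17b7 and Acat2 were called in none of the 8 comparisons with a matched control.

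The LXR group gave the other KSM calls, all on few counts. Abcg1 stood at 1.67 CPM with Oct4, 9.11 CPM with c-JunDN, 15.5 CPM with Jdp2 and 1.84 CPM with DR, from 6, 29, 46 and 5 counts. It was 4.95-fold higher (1.90 to 16.4) with c-JunDN and 8.44-fold higher (3.37 to 27.2) with Jdp2 than with DR. Nr1h3 stood at 1.39, 2.51, 1.69 and 8.10 CPM in the same order of libraries, from 5, 8, 5 and 22 counts. It was 5.82-fold lower (2.15 to 19.7) in the Oct4 library, 3.22-fold lower (1.38 to 8.37) in that of c-JunDN and 4.80-fold lower (1.77 to 16.2) in that of Jdp2 than with DR. In Abcg1 the c-JunDN and Jdp2 libraries were high, and in Nr1h3 the DR library was high. Abca1 was at 55.9 CPM in the c-JunDN library and 92.0 CPM in that with DR, 1.65-fold lower (1.35 to 2.01) and under the limit, so the 2 exporters differed in sign there. Summed macrophage markers lay between 12.0 and 20.3 CPM in the 4 KSM libraries, with Csf1r and C1qa at 0 in each.

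The controls were also set against each other. DR MEF had 4 of 35 measured members higher and 1 lower than WT MEF, beside 9.56% higher and 10.4% lower among 10964 genes. The share called higher was thus near that of all genes, and the share called lower was below it. The enzyme median was 0.54, beside -0.11 for all genes. Tm7sf2 was at 22.7 CPM with DR and 7.31 CPM in WT, 3.11-fold higher (2.17 to 4.39). Pmvk was 2.73-fold higher (2.07 to 3.58), Mvd 2.11-fold higher (1.76 to 2.52) and Mylip 2.68-fold higher (2.19 to 3.26), while Stard4 was 3.12-fold lower (2.45 to 4.05) at 32.4 CPM against 101 CPM. Scaling by total counts shifted the median over all measured genes by 0.36 and raised the count of members called higher to 11. The share of all genes called higher at that scaling is not given. The 13 lower calls with c-Jun against DR became 7 against WT MEF, with no share over all genes given for the latter.

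In ESC, the uninduced line had 5 of 35 measured members lower and 0 higher than WT ESC. Among 10895 genes, 18.3% were lower and 6.17% higher, so the members were called less than the background in each direction. Abca1 was 9.54-fold lower (5.75 to 17.1), Scd1 2.77-fold lower (2.51 to 3.06) at 195 CPM without doxycycline against 539.6 CPM in WT, and Stard4 2.56-fold lower (2.02 to 3.30). Abcg1 was 2.28-fold lower (1.46 to 3.75) and Insig1 2.18-fold lower (1.95 to 2.44). None of the 16 enzymes was called. Summed fibroblast markers stood at 123 CPM without doxycycline and 1335 CPM in WT ESC, with Col1a1 at 6.33 and 441 CPM, and their part in these differences was not tested.

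Between cell types, WT MEF had 5 members higher and 8 lower than WT ESC, beside 24.3% higher and 29.4% lower among 11693 genes, so the members were called less than the background in each direction. Hsd17b7 was at 153 CPM in WT MEF and 33.4 CPM in WT ESC, 4.58-fold higher (4.11 to 5.12). Sc5d was 2.51-fold higher (2.25 to 2.81), Insig2 2.36-fold higher (2.05 to 2.73), Cyp51 2.32-fold higher (2.20 to 2.45) and Mylip 2.90-fold higher (2.32 to 3.67). Pmvk was 4.01-fold lower (3.42 to 4.72), Elovl6 3.84-fold lower (3.63 to 4.06), Dhcr7 3.20-fold lower (2.91 to 3.52) and Tm7sf2 3.00-fold lower (2.40 to 3.76) in MEF. Abcg1 was 2.69-fold lower (2.17 to 3.35), and Acat2, Fasn and Acly lay just past the limit, each 2.01-fold lower.

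KSM cells with DR had 4 members higher and 2 lower than MEF with DR, beside 18.1% higher and 20.1% lower among 11342 genes. Fasn was at 1165 CPM in KSM with DR and 447 CPM in MEF with DR, 2.60-fold higher (2.42 to 2.81), and Elovl6 at 216 and 98.7 CPM, 2.19-fold higher (1.87 to 2.59). Stard4 was 3.40-fold higher (2.60 to 4.50) and Nr1h3 4.19-fold higher (1.42 to 16.7) on 22 and 4 counts. Mylip was 14.9-fold lower (8.25 to 29.5) at 4.42 CPM in KSM against 65.8 CPM in MEF, and Abcg1 2.89-fold lower (0.926 to 10.6) on 5 and 11 counts, an interval that includes 1. The fatty acid median was 0.58 and the enzyme median -0.26, beside 0.042 for all genes.

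Further genes of these routes, listed by pathway membership and not by their change, moved less as a group with c-Jun in MEF. Of 17 other sterol genes, 1 fell and 1 rose, and of 11 other fatty acid genes 0 fell and 1 rose. Among all measured genes of that comparison, 9.54% fell and 7.75% rose. Sc4mol, a methyl sterol oxidase of the same route, was at 71.5 CPM with c-Jun and 146 CPM with DR, a log2 change of -1.02. Erlin1, a scaffold of sterol-regulated protein degradation, was at 1.06, and Acsl4, an acyl-CoA synthetase for polyunsaturated fats, at 297 and 65.8 CPM, a change of 2.16. Of 5 other efflux genes 2 fell, Pltp, a phospholipid transfer protein, at 5.50 and 73.0 CPM (-3.51) and Smpdl3a at -1.44. In ESC with doxycycline, 21.5% of all measured genes rose and 18.9% fell. There 3 of 17 other sterol genes rose, among them Cyb5r3 (log2 change 2.28) and Npc1 (1.24), and 2 fell (Lbr, a sterol reductase of the nuclear envelope, -1.63, and Tmem97, -1.15). Of 11 other fatty acid genes, 3 rose (Acsl3, 2.41, Elovl1, 2.30 and Me1, 2.03) and 1 fell (Gpam, -1.29). Of 4 measured other efflux genes, 2 rose (Scarb1, 1.17, and Lpcat3, 1.07) and 1 fell (Pltp, -1.77). In the other 6 comparisons with a matched control, 1 call was made among the 17 other sterol genes, Erlin1 with Oct4 in MEF, at 1.26. Of the other fatty acid genes, Elovl5 fell with Jdp2 in MEF (-1.115) and Acsl3 with Oct4 in MEF (-1.158). Hsd17b12 rose with Oct4 in MEF (1.747) and Lpin1 with Oct4 in KSM (1.123). Of the other efflux genes, Smpdl3a rose with Oct4 in MEF (1.125) and with Jdp2 in KSM (1.075). In these comparisons between 1.31% and 11.6% of all measured genes were called in each direction.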

How the data were processed

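RNA of 13 mouse libraries, 1 per group, was analysed. Per the submitters' processing notes, the authors used bcl2fastq 2.15.0.4, Bowtie2 2.2.3 and RSEM 1.1.21 with the build mm9, and per the labels' protocols libraries were made with a TruSeq kit. The deposited values of 12 libraries are RSEM expected counts and a transcript fraction per gene name, and the MEF Oct4 library was deposited with expected counts, TPM and FPKM on Ensembl genes. The FPKM were not used. Whether counting used strand is not given in the sources used here. Expected counts were rounded. The Oct4 table was joined by name (17964) or synonym (1715), which kept 96.98% of its counts, and comparisons with it use these genes on both sides. Genes were scaled with TMM in edgeR 4.0.16 (R 4.3.3) to CPM. The change is the log2 ratio of CPM with a pseudocount of 1, for genes with at least 5 CPM in 1 of 2 libraries, called at 2-fold. The 95% intervals of ratios are exact conditional binomial intervals of 2 counts, and those of single levels are exact Poisson intervals. The fraction was scaled to TPM. Intervals and calls were tested on simulated Poisson counts, the model the intervals assume, so variation between cultures or libraries was not tested.

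The 8 comparisons set each library with a factor against its matched control, and 4 more describe controls and cell types. With 1 library per group there is no test. Named genes are all members, with called members and Srebf1, Srebf2, Insig1 and Insig2 in each matched comparison. The members, groups and lists were chosen with earlier results of these data known. Alternatives were total-count and median-of-ratios scaling (DESeq2 1.42.0 method), TPM, a pseudocount of 5, no filter, the WT library as control and matching by name alone. Immunoprecipitation peaks, deposited on mm9 coordinates, were not used here. The value of 1 further sterol gene is not reported here.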

Additional observations from a re-analysis of the deposited data

Results flagged for a closer look

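Members whose change with c-Jun passed 2-fold in opposite directions in ESC and in MEF were singled out, each with 1 library per group, so the difference between the cell types was not tested. Insig1 was at a log2 change of -1.33 in ESC with doxycycline against without and at 1.47 in MEF with c-Jun against DR, a difference of -2.80. Sc5d was at 1.04 in ESC and -1.48 in MEF, a difference of 2.52. Mylip was at 1.59 in ESC, on 50 counts with doxycycline and 11 without, and at -2.60 in MEF, a difference of 4.19. The ESC call of Sc5d and that of Mylip were not made against WT ESC, which stood at 35.8 CPM for Sc5d and 8.46 CPM for Mylip. The MEF call of Insig1 was not made against WT MEF, where its log2 change was 0.575.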

How the results depend on the processing

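No paired analysis was possible because each group holds 1 library. For the counts of calls under the alternatives below, no share over all genes is given. Of 232 alternative values of a count or median, 202 stayed within 1.5 times the main count or within the median counting interval, and for the called members with Srebf1, Srebf2, Insig1 and Insig2, 489 single values stayed, 83 moved and 4 called ones turned sign. With c-Jun in MEF, counts and medians stayed under each scaling, TPM, no filter and the pseudocount of 5. Against WT MEF, its members called lower were 7 (13 against DR) and higher 0 (1). Against WT ESC, c-Jun in ESC had 15 members lower (10) and 0 higher (4). Its enzyme median was -1.03 (-0.59) and its fatty acid median -1.07 (-0.30), with the median of all genes at -0.258 (-0.072). As TPM, that ESC comparison had 4 members lower (10), an enzyme median of -0.21 and a fatty acid median of 0.078, with the median of all genes shifted by 0.36, and by total counts its fatty acid median was -0.097 with a shift of 0.20. Against WT MEF, c-JunDN had 3 members higher (0) and an enzyme median of 0.23 (-0.033), Jdp2 an enzyme median of -0.13 (-0.59), and Oct4 1 member higher (0), 8 lower (5) and an enzyme median of -0.18 (-0.70). As TPM, Oct4 in MEF had 2 members higher (0) and c-JunDN in KSM 0 higher (1). With the pseudocount of 5, c-JunDN in KSM had 0 lower (1) and Jdp2 in KSM 1 lower (2). For DR against WT MEF, total counts gave 11 higher (4) and medians of 0.90 for enzymes (0.54) and 0.279 for fatty acid genes (-0.083), and TPM gave 7 higher. By total counts the uninduced line against WT ESC had 1 higher (0). For WT MEF against WT ESC, total counts gave 3 higher (5) and medians of -0.76 for enzymes (-0.49) and -0.73 for fatty acid genes (-0.47), and TPM gave 5 lower (8) and an enzyme median of -0.37. As TPM, KSM against MEF, both with DR, had 1 lower (2). Against the WT library, 4 called changes turned sign: Abca1 in ESC (-0.075), Mylip with c-JunDN (0.295) and Jdp2 (0.277), and Mvd with Jdp2 (0.03). Counting changes under 2-fold too, the sign against WT differed for 5 of 36 members with c-Jun in ESC and, in MEF, for 9 with c-Jun, 17 with c-JunDN, 11 with Jdp2 and 13 with Oct4. The cause of these moves was not tested. Between 0.835 and 1.60 CPM stood for 3 counts in the libraries other than WT, which limits Nr1h3, Abcg1 and Mylip most.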
